A study of Mus musculus with 18 samples.

Results

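The use of single exons was compared between AGO2 null and wild-type MEFs, the fibroblasts of mouse embryos, on Affymetrix exon arrays. The arrays carry several probe sets per gene, most of them placed on single exons. The 6 samples compared, of 18 in the series, were the 3 exon-level samples of AGO2 -/- cells and the 3 of wild-type cells, and the 3 exon-level samples of Dicer -/- cells served for comparison. All were cultured for 3 days, until subconfluent, in medium with 7% fetal calf serum, and their total RNA was amplified and labelled with a NuGEN kit. The members were the 205449 probe sets, of 229581 in the exon-level table, that carried 1 gene symbol and belonged to the 14519 genes with 4 or more such probe sets. The limit of 4 admitted 773 genes with exactly 4 probe sets and left out 688 genes with exactly 3. The labels name 1 line per genotype. The AGO2 null line came from another source than the wild-type and Dicer null lines. Genotype and source of the line therefore cannot be told apart in any difference below. The labels call the replicates biological without naming separate cultures or animals, so p-values describe only how these samples varied, which may be in part technical.

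Argonaute 2 (AGO2) binds small RNAs, silences matching messenger RNAs in the cytoplasm and can cut them, and Dicer makes the microRNAs that it binds. Argonaute proteins have also been found in the nucleus, and the title of the series concerns chromatin silencing and alternative splicing, the joining of different exons of 1 gene into different transcripts. A change in exon use appears on an exon array as a probe set that moves differently from the other probe sets of its gene. It was measured with the splicing index, here called the index: from the log2 signal of each probe set, the median signal of its gene in that sample was subtracted. An index difference of 1 is a 2-fold change of the probe set relative to its gene. Because the gene median is subtracted, a probe set whose signal stays put while its gene rises obtains a lower index, so probe set levels or gene differences are given beside the index of most probe sets named.

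Of the members, 114158 probe sets in 7832 genes were tested and 91291 were not. Of the untested, 84949 lay in genes whose median level was under 6.69, the median over all named genes, and 6342 had a mean level under 5.43, the 25th percentile of the table. Both limits were applied to means over the 9 exon-level samples, so a gene low in 1 group could pass through another. A probe set was called when its index differed at a Benjamini-Hochberg adjusted p under 0.05 in limma's moderated test over all those tested, fitted on the 9 exon-level samples. Median log2 values of the table were 7.09 to 7.10 in AGO2 null samples and 6.99 to 7.07 in wild-type samples. Across the probe sets tested, which are not independent replicates, the index correlated at 0.953 to 0.973 within AGO2 null samples, at 0.956 to 0.969 within wild-type samples and at 0.914 to 0.945 between the 2 genotypes. Fibroblast markers were present: 11 of 13 genes lay at or above the median gene level, and their mean log2 level was 9.73 to 9.90 in AGO2 null samples and 9.36 to 9.42 in wild-type samples. Of 12 macrophage and leukocyte markers only 1 reached the median gene level, with means of 5.15 to 5.46 in AGO2 null samples and 5.12 to 5.30 in wild-type samples. Epithelial markers had a mean log2 level of 6.21 to 6.55 in AGO2 null samples and 5.74 to 5.86 in wild-type samples, and 4 of 13 genes reached the median gene level. Fewer cells of a type and less RNA per cell cannot be told apart in such bulk samples. The part of these marker differences in the exon results was not tested.

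Ago2 itself was examined first, as a check of the labels. The level of 19 of its 21 probe sets was called lower in AGO2 null cells, where 6.35% of all probe sets in the table were called lower and 15.4% were called in either direction. Its gene median was 6.94, 6.91 and 6.85 in AGO2 null samples, against 7.99, 8.03 and 8.05 in wild-type samples, a difference of -1.12 on the log2 scale, so every AGO2 null sample lay below every wild-type sample. The fall was unequal among the Ago2 probe sets. Probe set 5591196 read 2.75, 3.32 and 3.33 in AGO2 null samples, against 5.87, 5.95 and 6.10 in wild-type samples, the largest level difference of the gene (-2.84). Probe set 4999812 read 5.31, 5.58 and 5.81 in AGO2 null samples, against 7.98, 7.69 and 8.01 in wild-type samples, a level difference of -2.32. Both fell further than the gene as a whole, with index differences of -1.71 (SE 0.17, adjusted p = 0.00133) and -1.20 (SE 0.15, adjusted p = 0.0037). In contrast, probe set 5302371 read 7.33, 7.45 and 6.85 in AGO2 null samples, against 7.44, 7.37 and 7.48 in wild-type samples. The 2 genotypes thus overlapped in level there, and the index of 5302371 was higher by 0.90 (limma adjusted p = 0.0117). In all, the index of 7 Ago2 probe sets was called lower and that of 2 was called higher, while 12 were not called. In the fit of only the 6 AGO2 null and wild-type samples 4 of these 9 calls held and 5 were lost. When an offset of 50 was added on the linear scale, the index difference of 5591196, which is dim in every AGO2 null sample, became -0.07 and its call was lost, while that of 4999812 became -0.68. Against Dicer null cells the index of 5591196 also differed, by -2.04 (adjusted p = 0.000317), as did that of 4999812, by -1.31 (adjusted p = 0.0016). Which of these probe sets lie in the deleted part was not analysed here.

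**Figure D1:**
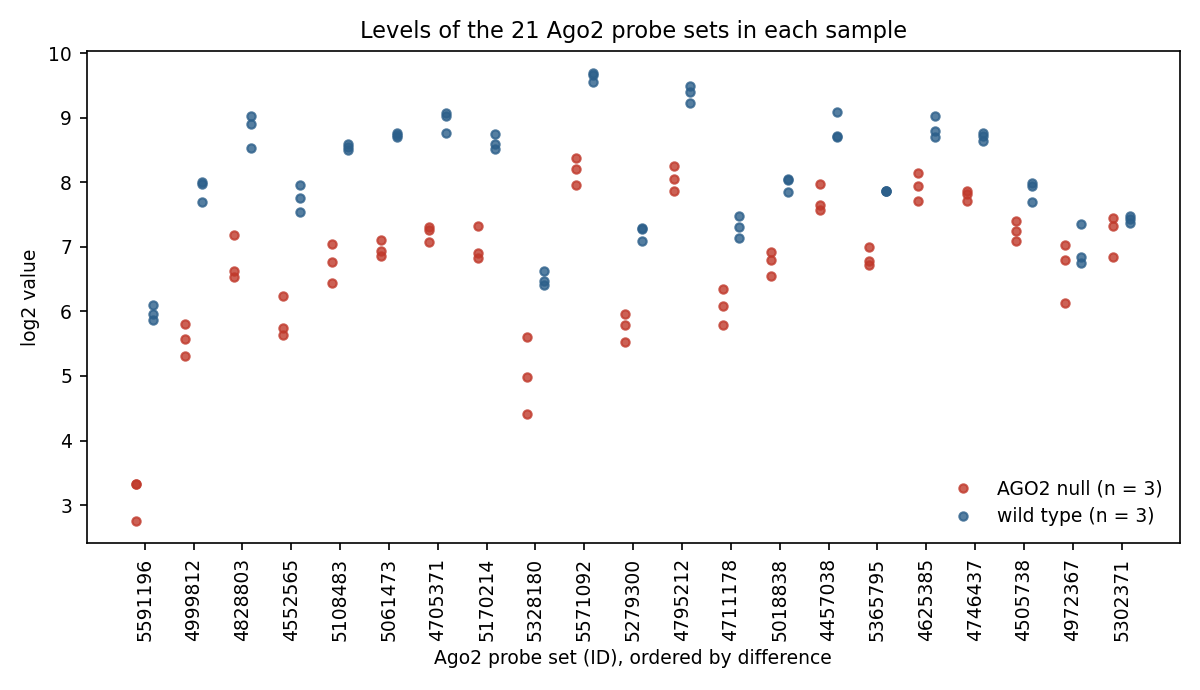
Log2 level of each of the 21 Ago2 probe sets in the 3 AGO2 null samples (red) and the 3 wild-type samples (blue), ordered by the difference in level. Probe set 5591196 at the left differs by -2.84, while 5302371 at the right differs by -0.22 and overlaps between genotypes.

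Across all genes, the index differed at 6744 probe sets, 5.91% of those tested, in 3030 genes (38.7% of 7832). The index was higher in AGO2 null cells at 2860 of them (2.51% of those tested) and lower at 3884 (3.4%). A difference of at least 2-fold was reached by 1690 called probe sets (1.48% of those tested), 808 higher and 882 lower, and 54 reached 8-fold. The median absolute index difference was 0.17 over all probe sets tested and 0.71 over those called, beside a median replicate SD of 0.15 in AGO2 null and 0.17 in wild-type samples. In all 6744 the 3 AGO2 null indices did not overlap the 3 wild-type ones, as was also the case for 24.8% of all probe sets tested. Of the genes concerned, 1639 had 1 called probe set, 1391 had 2 or more and 662 had calls in both directions. Subtracting the gene median leaves probe sets on both sides of it in each sample, so calls both ways are partly set by the index. The count depended on the samples fitted: it was 2422 in a fit of only the 6 AGO2 null and wild-type samples, of which 2356 were among the 6744. It was 3327 without AGO2 null replicate 1, 2836 without AGO2 null replicate 3 and 3972 without wild-type replicate 2. Of the calls, 42.41% were higher in AGO2 null cells, against 60.55% with limma's diffSplice, which sets each probe set against the others of its gene.

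Calls were denser in genes whose level differed between the genotypes. In genes with a median within 0.25 log2 of the wild type, 1840 of 62061 probe sets were called (2.96%), 846 higher and 994 lower. In genes at least 2 log2 higher in AGO2 null cells the share was 42.2%, and in genes at least 2 log2 lower it was 26%. Such genes may lie near background in the lower genotype, since the level limit used the mean over all samples. The part of this in those shares was not tested. Direction ran against the gene: among calls in genes 0.5 to 1 log2 higher in AGO2 null cells 27% were higher, and among calls in genes 1 to 2 log2 lower 63.4% were higher. By contrast, the share called varied little with the level of the probe set, from 5.54% at a mean level of 9 to 10 to 6.03% under 7. Of the 6744 calls, 1261 were of a probe set that moved by at least 0.5 in a gene within 0.25. A further 685 lay in genes that moved by 1 or more while the probe set moved by under 50% of that, in the same direction, and 507 differed by at least 0.25 opposite to a gene that differed by as much. The remaining 4291 belonged to none of these classes. The gene median was used for description and was not itself tested.

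**Figure D2:**
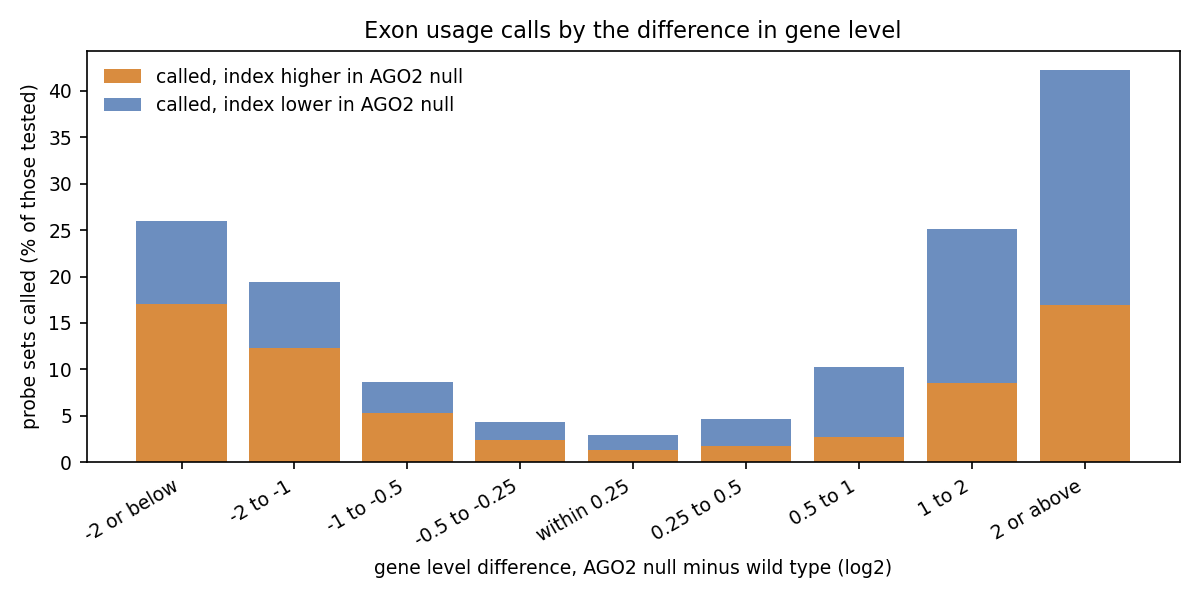
Share of tested probe sets called for the index (vertical axis, percent), by difference in gene level, AGO2 null minus wild-type cells (horizontal axis, log2). Calls are split into those with a higher (orange) and a lower (blue) index in AGO2 null cells. The share is 2.96% in genes within 0.25 and 42.2% in genes at least 2 higher.

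The clearest index differences were therefore sought among genes whose level was within 0.25, where the probe set differed and the gene median changed little. Whether such a difference reflects the choice of an exon was not tested. The 8 probe sets with the largest higher and the 8 with the largest lower index, 1 per gene, were taken. Their index differences were 3.09 or more and -2.95 or below. The largest was in Psmb5, which encodes a catalytic subunit of the proteasome, the complex that degrades ubiquitin-tagged proteins. Its probe set 5037994 read 9.70, 9.63 and 9.79 in AGO2 null samples, against 3.89, 4.10 and 3.91 in wild-type samples (index difference 5.56, SE 0.10, limma adjusted p = 1.65e-07). The wild-type samples lay near 4 and the AGO2 null samples near 10. The other 7 Psmb5 probe sets differed in level by -0.13 to 0.43. In Fbxl5, the iron-sensing substrate receptor of a ubiquitin ligase, probe set 4506231 read 8.56, 8.15 and 8.74 in AGO2 null samples, against 3.45, 3.33 and 3.67 in wild-type samples (index difference 5.13, SE 0.17, limma adjusted p = 1.13e-05). Probe set 5233615 of Rint1, which acts in vesicle traffic between Golgi and endoplasmic reticulum, read 7.54, 7.14 and 7.66 in AGO2 null samples, against 2.70, 3.83 and 2.48 in wild-type samples (index difference 4.54, SE 0.43, limma adjusted p = 0.000904). Wild-type replicate 2 was the highest of its group there, and still lay below every AGO2 null sample.

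A second proteasome gene, Psma3, encodes a structural subunit of the core particle. Its probe set 5370051 read 10.90, 10.80 and 11.13 in AGO2 null samples, against 7.64, 7.13 and 7.12 in wild-type samples, and the groups did not overlap (index difference 3.58, SE 0.18, limma adjusted p = 4.16e-05). The gene as a whole differed by 0.06, and the level of the other probe sets by -0.13 to 0.48. Dicer null cells stood with the wild type at this probe set, at 7.87, 7.75 and 7.41, and AGO2 null cells exceeded them in index by 3.25 (adjusted p = 2.75e-05). Arid4a, which encodes a chromatin protein that binds the retinoblastoma protein, showed the same order. Probe set 5533658 of Arid4a read 9.28, 8.98 and 9.34 in AGO2 null samples, against 5.81, 6.03 and 5.99 in wild-type samples (index difference 3.11, SE 0.21, limma adjusted p = 0.000175), and Dicer null samples read 6.28, 6.22 and 5.56. Scfd1, a regulator of membrane fusion in the secretory pathway, read 9.40, 8.48 and 9.40 in AGO2 null samples, against 5.77, 4.89 and 5.48 in wild-type samples at probe set 4847276 (index difference 3.55, adjusted p = 8.28e-05). The lysophospholipid acyltransferase Mboat2 read 6.84, 7.32 and 7.07 in AGO2 null samples, against 3.32, 3.85 and 4.39 in wild-type samples at 5359487 (index difference 3.46, adjusted p = 0.00027). In both genes the AGO2 null samples were all above the wild-type samples, and the differences from Dicer null cells, -0.07 for Scfd1 and -0.14 for Mboat2, were not called.

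Among those of the 16 with a lower index, that of Washc5, a subunit of the complex that nucleates actin on endosomes, had the largest difference. Probe set 4680685 read 5.56, 5.17 and 5.87 in AGO2 null samples, against 9.17, 9.29 and 9.13 in wild-type samples (index difference -3.86, SE 0.16, limma adjusted p = 1.83e-05). The remaining 34 tested probe sets of the gene differed in level by -0.32 to 0.76, so this probe set stood alone in size. In Rif1, a regulator of replication timing and DNA break repair, probe set 5037048 read 2.69, 2.48 and 2.84 in AGO2 null samples, against 6.53, 5.73 and 6.72 in wild-type samples (index difference -3.81, SE 0.17, limma adjusted p = 1.95e-05). Dicer null samples read 7.64, 7.74 and 7.67 at the Rif1 probe set, and the AGO2 null minus Dicer null index difference was -4.30 (adjusted p = 6.95e-06). Ociad1 5149852 followed the same pattern, with 3.53, 3.11 and 3.97 in AGO2 null samples, against 7.44, 6.87 and 7.34 in wild-type samples and 8.26, 8.21 and 8.03 in Dicer null samples (index difference -3.85, SE 0.14, limma adjusted p = 1.50e-05). Cenpc1, which encodes a foundation protein of the kinetochore at centromeres, was another with Dicer null cells near or above the wild type. Its probe set 5443557 read 5.81, 5.30 and 6.59 in AGO2 null samples, against 9.12, 8.91 and 9.18 in wild-type samples (index difference -2.95, SE 0.24, limma adjusted p = 0.000432), and 9.63, 9.71 and 9.66 in Dicer null samples.

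Ift74, a component of the transport trains that build cilia, read 5.90, 4.95 and 5.30 in AGO2 null samples, against 9.15, 8.77 and 9.46 in wild-type samples at probe set 4552894 (index difference -3.57, SE 0.21, limma adjusted p = 8.25e-05). Mterf4, which takes part in the assembly of mitochondrial ribosomes, read 6.97, 5.51 and 6.93 in AGO2 null samples, against 10.03, 10.24 and 10.24 in wild-type samples at 5070133 (index difference -3.49, SE 0.26, limma adjusted p = 0.000299). All 3 wild-type samples were above 10 there and all 3 AGO2 null samples under 7. Evx2 is a homeobox gene beside the Hoxd cluster. Its 4623725 read 6.30, 6.40 and 5.38 in AGO2 null samples, against 9.05, 9.46 and 9.53 in wild-type samples (index difference -3.24, limma adjusted p = 0.000172). The gene median of Evx2 averaged 6.94 in AGO2 null and 7.02 in wild-type samples, little above the limit of 6.69. Of the 16 probe sets, 7 also differed between AGO2 null and Dicer null cells, where 5.96% of all probe sets tested did: those of Psma3, Arid4a, Washc5, Ociad1, Rif1, Ift74 and Cenpc1. The other 9 were not called. The 16 were chosen for extreme AGO2 null values, and the same AGO2 null samples enter this comparison. A share above 5.96% is therefore partly set by the choice. Both null lines were set against the same wild-type samples, and the index difference of Psmb5 5037994 was 5.56 in AGO2 null and 5.27 in Dicer null cells, that of Fbxl5 4506231 5.13 and 4.73. A p that misses the threshold does not show that the null lines were alike. All 16 calls held under every alternative that tested them, but in several of these genes 1 group read under 5.43, so the size is not well determined. With an offset of 50 the index differences were 3.58 for Psmb5, 2.85 for Fbxl5, 2.01 for Rint1, 1.69 for Mboat2, 1.45 for Heatr5a, -1.85 for Ociad1 and -1.35 for Rif1. In Scfd1 and Ift74 only part of the samples of 1 group read under 5.43, and the offset gave 2.54 and -2.56.

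**Figure D3:**
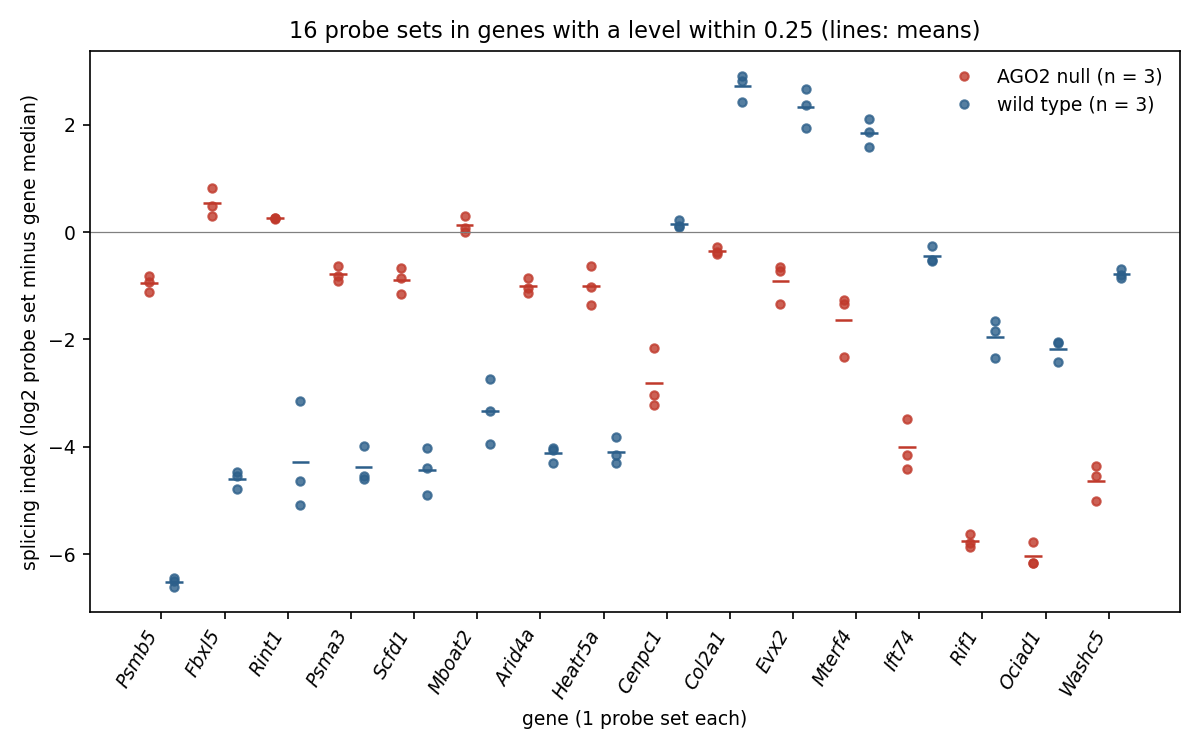
Splicing index (log2 probe set value minus gene median) of the 16 probe sets in genes with a level within 0.25, for each of 3 AGO2 null samples (red) and 3 wild-type samples (blue), with group means as lines. No AGO2 null point overlaps a wild-type point of the same probe set, and the widest gap is that of Psmb5, with an index difference of 5.56.

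Several of the genes above had more than 1 call. Mterf4 had 2 probe sets higher and 4 lower of 12 tested, and Scfd1 had 3 and 3 of 27. Rint1 had 2 and 3 of 18, and Rif1 had 2 and 3 of 39. Described next are 8 genes with a median within 0.25 in which several probe sets were called in 1 direction. These 8 genes were picked after their values had been seen, for the most calls in 1 direction, and their calls are a description. In Col2a1, the fibrillar collagen of cartilage, 6 of 55 tested probe sets were lower, with level differences of -3.17 to -1.06, and 4 were higher, with level differences of 0.31 to 0.54. In the fit of 6 samples the 6 lower calls held and the 4 higher ones were lost. Its probe set 5076485 read 6.68, 6.73 and 6.55 in AGO2 null samples, against 10.02, 9.61 and 9.86 in wild-type samples (index difference -3.07), and 4363476 read 7.64, 7.22 and 7.27 in AGO2 null samples, against 9.66, 9.31 and 9.46 in wild-type samples (index difference -1.99). The Col2a1 gene median was 7.05, 7.14 and 6.84 in AGO2 null samples, against 7.11, 7.19 and 7.04 in wild-type samples. It differed by -0.11 and lay little above the limit of 6.69. Whether most of its probe sets read background was not tested. Ttc3, a ubiquitin ligase, had 5 lower and 1 higher of 55. A pair of its probe sets stood apart: 4881307 read 7.76, 7.51 and 8.16 in AGO2 null samples, against 10.22, 10.15 and 10.16 in wild-type samples (index difference -2.20, SE 0.11, limma adjusted p = 3.59e-05), and 4387363 read 8.43, 7.54 and 7.73 in AGO2 null samples, against 9.95, 10.04 and 10.03 in wild-type samples (index difference -1.94, SE 0.17, limma adjusted p = 0.000687). Dicer null samples read 9.75, 9.80 and 9.78 at 4881307 and 9.66, 9.61 and 9.87 at 4387363, and both differed from AGO2 null cells, at adjusted p = 1.33e-05 and adjusted p = 0.00027 in the same limma fit. The other 4 Ttc3 calls had index differences from -0.46 to 0.52 and did not hold in the fit of 6 samples.

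Sptbn1 encodes a beta spectrin of the membrane skeleton. It had 11 of 47 probe sets lower, with index differences of -1.11 to -0.41, and 6 of the 11 were also called in the fit of 6 samples. Its most shifted probe sets were 5422663, at 7.86, 6.96 and 7.99 in AGO2 null samples, against 8.71, 8.64 and 8.59 in wild-type samples, and 4884064, at 9.22, 8.49 and 9.10 in AGO2 null samples, against 9.88, 10.01 and 9.96 in wild-type samples. AGO2 null replicate 2 gave the lowest value of both, and the wild-type samples lay close together. The Sptbn1 median differed by 0.07. The kinesin motor Kif1b likewise had 11 of 55 lower, at -0.80 to -0.42, and the plakin Dst, a linker between cytoskeletal filaments, had 14 of 117 lower and 4 higher. In each of Kif1b and Dst only 1 of these calls held in the fit of 6 samples. Heatr5a had 6 of 42 higher, led by 4494757 at 6.94, 6.29 and 7.12 in AGO2 null samples, against 4.20, 3.65 and 3.75 in wild-type samples (index difference 3.09), and 2 held in the fit of 6 samples. The secreted metalloprotease Adamts7 had 6 of 33 higher, of which 1 held. In Nemf, a factor of ribosome-associated quality control, probe set 4731642 read 4.89, 5.47 and 4.76 in AGO2 null samples, against 7.36, 6.47 and 7.41 in wild-type samples (index difference -2.22, SE 0.22, limma adjusted p = 0.00109), 4 others had index differences from -0.66 to -0.32, and 1 was higher. Of these 6 Nemf calls only that of 4731642 held in the fit of 6 samples, and its index difference was -1.33 with an offset of 50.

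The largest index differences over all tested genes included many in genes whose level moved. Of the 20 named by size, 9 lay in genes within 0.25, given above, and 10 in genes that differed by 1 or more. Tnfsf18, a ligand of the tumour necrosis factor family, had the lowest index difference. Its probe set 5188971 read 11.30, 10.37 and 10.84 in AGO2 null samples, against 10.44, 10.60 and 10.32 in wild-type samples, so its level overlapped between genotypes, while the gene median was 10.20, 9.49 and 9.74 in AGO2 null samples, against 4.68, 3.94 and 4.62 in wild-type samples. The index difference of -5.01 (adjusted p = 3.77e-05) came with a difference of the gene and not of the probe set. The same held for Igfbp3, a carrier of insulin-like growth factors, whose probe set 5167809 read 5.81, 5.80 and 5.77 in AGO2 null samples, against 6.08, 5.58 and 5.97 in wild-type samples, with a gene difference of 3.49. Lbp, which binds bacterial lipopolysaccharide, read 6.22, 6.01 and 6.33 in AGO2 null samples, against 6.19, 5.67 and 5.89 in wild-type samples at 5222229, with a gene difference of 3.68. Sema6d 5035728 had a level difference of -0.21 against 3.27 for its gene. In the opposite sense, Rbp4, the blood carrier of retinol, read 6.45, 6.78 and 6.68 in AGO2 null samples, against 6.42, 6.25 and 6.54 in wild-type samples at 4467767 while its gene differed by -3.62, and its index was higher by 3.85.

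Ptdss1, Sdc2 and Avpr1a were different, in that the probe set moved further than its gene. Ptdss1, a phosphatidylserine synthase, read 7.78, 7.07 and 8.23 in AGO2 null samples, against 2.83, 3.77 and 4.09 in wild-type samples at 4927089, a level difference of 4.13 beside 0.47 for the gene (index difference 3.65, SE 0.34, limma adjusted p = 0.000899). The cell-surface proteoglycan Sdc2 read 5.66, 3.59 and 5.46 in AGO2 null samples, against 9.69, 9.61 and 9.64 in wild-type samples at 5181601, a level difference of -4.75 beside -1.04 (index difference -3.71, SE 0.37, limma adjusted p = 0.00124). AGO2 null replicate 2 was the lowest at the Sdc2 probe set, and no AGO2 null sample came near the wild type. Avpr1a, a vasopressin receptor, has 4 probe sets, 2 called each way. With 4 probe sets, 2 signals lie at or above the gene median and 2 at or below it in every sample. Calls each way are thus partly set by the index, here and in Hoxd13, which also has 4. Probe set 4331352 read 10.40, 10.08 and 10.14 in AGO2 null samples, against 1.74, 3.19 and 3.08 in wild-type samples (index difference 3.89), whereas 5287710 read 6.31, 6.25 and 6.11 in AGO2 null samples, against 5.31, 5.59 and 5.18 in wild-type samples (index difference -2.78). Both were higher in level, as was their gene (3.65), by 7.54 and 0.86. With an offset of 50 the index differences were 1.67 for Ptdss1, -2.35 for Sdc2 and 1.67 for Avpr1a 4331352.

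A total of 199 genes had 2 or more calls in each direction, which subtracting the gene median partly favours. In the 8 with the widest span the gene level differed by more than 2 log2 in every case. In all but Mme the lower genotype lay under the limit of 6.69, so the gene was tested through its higher samples. The wild-type means were 5.70 in Rtn1, 5.64 in Avpr1a, 5.62 in Serpina9, 5.83 in Serpind1, 6.10 in Aldh1a2 and 6.59 in Cadm1. The AGO2 null mean of Hoxd13 was 5.89. The part of this in the spans was not tested. The widest was Rtn1, a reticulon that shapes the endoplasmic reticulum and is known from neurons. Of its 17 probe sets 8 had a higher index, with levels 4.08 to 8.01 above the wild type, and 7 a lower index, with levels 0.40 to 1.71 above it. The 2 Rtn1 probe sets not called lay between, with level differences of 2.91 and 3.78. Probe set 4374553, with a higher index, read 11.27, 10.76 and 11.28 in AGO2 null samples, against 3.30, 3.58 and 3.61 in wild-type samples, and 4410939, with a lower one, read 9.21, 8.87 and 9.44 in AGO2 null samples, against 7.41, 7.73 and 7.23 in wild-type samples. Their index differences were 2.80 and -0.93 with an offset of 50. All 15 calls held in the fit of 6 samples, and 14 held under every alternative. The lowest adjusted p of an AGO2 null against Dicer null difference among them was 0.0823. Rtn1 in Dicer null cells had index differences from the same wild type of 4.23 at 4374553 and -1.72 at 4410939.

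Cadm1, an immunoglobulin-family adhesion molecule, had 8 probe sets with a higher index, 3.89 to 6.64 above the wild type in level, and 4 with a lower index, -0.09 to 1.29 from it. Probe set 5416721 read 9.20, 8.66 and 9.36 in AGO2 null samples, against 2.66, 2.25 and 2.40 in wild-type samples (index difference 3.48, SE 0.18, limma adjusted p = 5.44e-05), and 4762973 read 9.82, 9.62 and 9.67 in AGO2 null samples, against 8.94, 9.28 and 9.07 in wild-type samples (index difference -2.54, SE 0.10, limma adjusted p = 1.57e-05). In the fit of 6 samples 9 of the 12 Cadm1 calls held, and the 3 lost were all of the higher index. The index difference of 5416721, which read under 5.43 in the wild type, was 0.78 with an offset of 50. Aldh1a2, the enzyme that makes retinoic acid, had 7 higher and 3 lower of 16, and its probe set 5445472 read 9.17, 9.45 and 9.55 in AGO2 null samples, against 9.08, 9.29 and 9.15 in wild-type samples while the gene differed by 3.33. For that probe set the AGO2 null index also differed from that of Dicer null cells, by -1.61 (adjusted p = 0.00017). Mme, the cell-surface peptidase neprilysin, ran the other way: its gene differed by -3.91, 6 probe sets had a higher and 4 a lower index, and 4958394 read 5.19, 6.25 and 5.80 in AGO2 null samples, against 5.76, 5.20 and 5.39 in wild-type samples (index difference 4.21). Hoxd13, a patterning gene of the distal limb, differed by -4.27 with 2 probe sets called each way, and probe set 5481767 read 6.87, 6.88 and 7.02 in AGO2 null samples, against 7.26, 7.79 and 7.17 in wild-type samples (index difference 3.79). The serine protease inhibitors Serpina9 and Serpind1 completed the 8, with gene differences of 2.84 and 2.71.

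**Figure D4:**
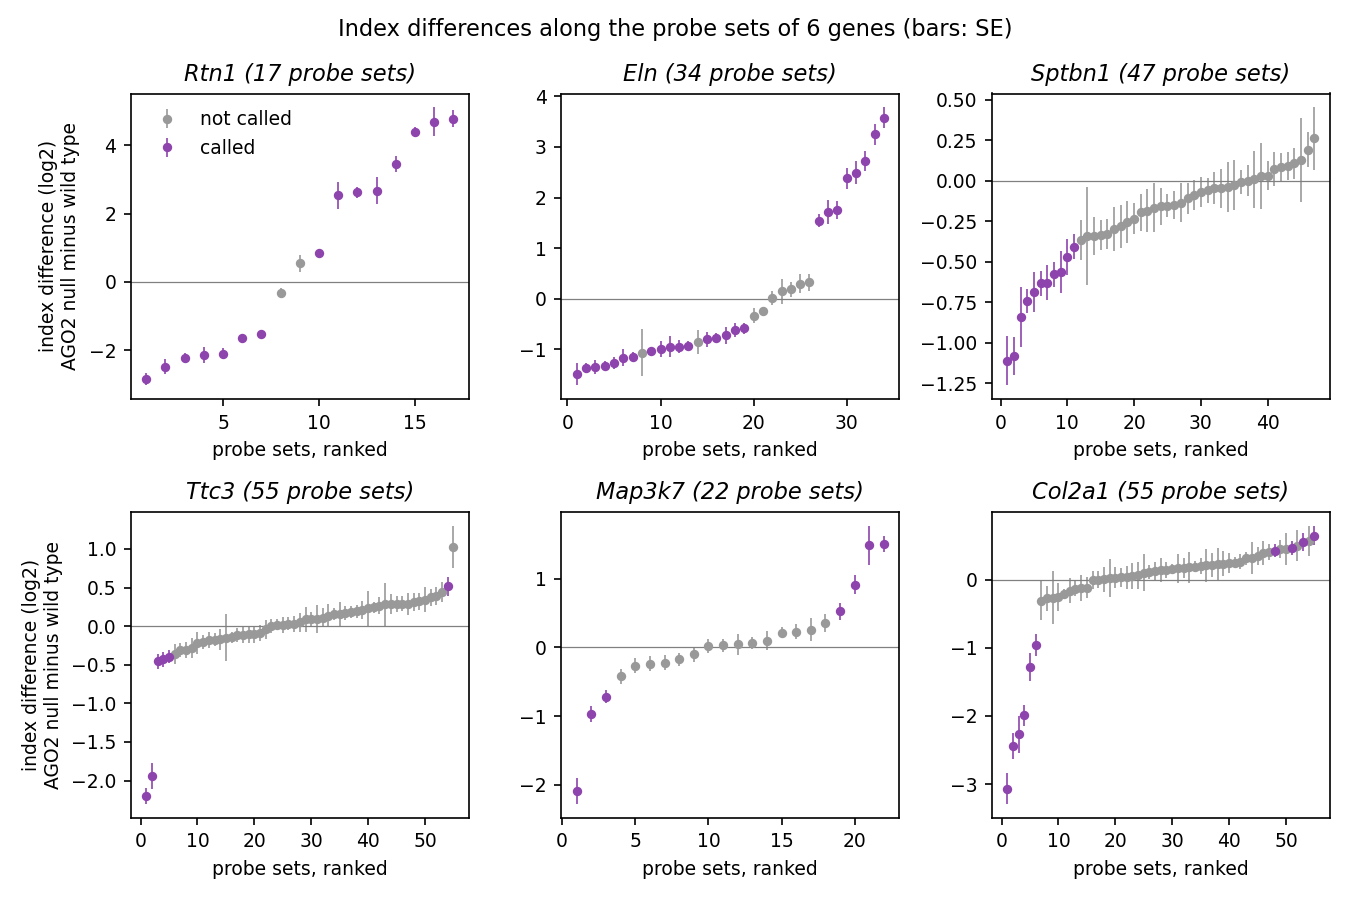
Index difference (log2, AGO2 null minus wild type, vertical axes) of every tested probe set of 6 genes, ranked from lowest to highest, with the standard error of the fit as bars and called probe sets in purple. Called probe sets of Rtn1 and Eln lie well above and below 0, while most probe sets of Ttc3, Map3k7 and Col2a1 lie near 0 with a few far from it.

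Lists of genes, chosen with earlier results of these data known, were described by their counts beside the 5.91% and the median of -0.02 over all probe sets tested. Matrix and adhesion genes with known alternative exons had the highest share of the 3 such lists. There, 60 of 1104 probe sets were higher and 68 lower (11.6%), in 25 of 34 genes, with a median index difference of -0.04. Of the 34, 9 had a level within 0.25, against 18 of 35 cytoskeletal and 23 of 48 signalling genes. When only genes that differed by less than 0.5 were tested, 1442 probe sets were called, of which 11 were of matrix and adhesion genes. Of the cytoskeletal list 27 were called there, and of the signalling list 19. The probe sets tested per list there were not counted, so these numbers give no shares and do not order the lists. Elastin (Eln), the protein of elastic fibres, gave 25 of the matrix and adhesion calls in the main fit, of which 20 held in the fit of 6 samples. Its gene median was 7.94, 8.02 and 7.80 in AGO2 null samples, against 6.72, 6.74 and 6.63 in wild-type samples. Dicer null samples read 6.27, 6.35 and 6.35. The wild-type mean of 6.6933 lay just under the limit of 6.6946, so Eln was tested through its AGO2 null level. The 11.6% thus rests in part on a gene admitted by the group where it is high. The 8 Eln probe sets with a higher index were 2.77 to 4.80 above the wild type in level, and the 17 with a lower index were within -0.27 to 0.64 of it. Probe set 4868330 of the first set read 10.43, 10.45 and 9.66 in AGO2 null samples, against 5.52, 5.34 and 5.28 in wild-type samples (index difference 3.57, SE 0.21, limma adjusted p = 7.69e-05), and 5556489 of the second read 11.15, 11.50 and 11.05 in AGO2 null samples, against 11.37, 11.44 and 11.22 in wild-type samples (index difference -1.33, SE 0.10, limma adjusted p = 0.00027). At 4868330 the AGO2 null index exceeded that of Dicer null cells by 4.98 (adjusted p = 8.52e-06), and 24 of the 25 differed between the null lines. The receptor phosphatase Ptprd was also on this list, with 4444033 at 10.18, 9.93 and 10.18 in AGO2 null samples, against 10.76, 10.95 and 10.87 in wild-type samples and a gene difference of 1.52 (index difference -2.28, SE 0.12, limma adjusted p = 5.51e-05). Cd44, a hyaluronan receptor with variable exons, had 16 of its 20 probe sets tested, with index differences of -0.60 to 0.15. None of the 16 was called by limma or diffSplice, and none had an unadjusted limma p under 0.05. The rest lay under the level limit for probe sets, and which Cd44 probe sets lie on variable exons was not analysed. Relative to Dicer null cells 8 of the 16 were higher in AGO2 null cells, counted by sign alone and without a threshold.

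Cytoskeletal genes with known alternative exons had 31 of 1144 probe sets higher and 44 lower (6.56%). In Tpm2, a tropomyosin of actin filaments, 3 of 15 were lower. Probe set 5152993 read 7.55, 6.96 and 7.39 in AGO2 null samples, against 8.75, 8.74 and 8.67 in wild-type samples (index difference -1.26, SE 0.14, limma adjusted p = 0.00198), and 5523996 read 10.22, 9.73 and 10.11 in AGO2 null samples, against 11.03, 11.11 and 10.96 in wild-type samples (index difference -0.85, SE 0.10, limma adjusted p = 0.00305). The other 12 Tpm2 probe sets had index differences of -0.52 to 0.19 and the gene differed by -0.16. In Dicer null samples 5152993 read 6.97, 6.89 and 7.10, beside a Tpm2 gene median of 8.76, 8.74 and 8.58, so that its index differed from the wild type by 0.60 there. All 3 lower probe sets differed in index between the null lines. The myosin light chain kinase Mylk had 4 higher and 5 lower, in a gene that differed by 2.39: 4991949 read 9.32, 8.87 and 9.33 in AGO2 null samples, against 4.53, 5.29 and 5.36 in wild-type samples, and 4991533 read 8.63, 8.51 and 8.35 in AGO2 null samples, against 8.09, 8.43 and 8.07 in wild-type samples. Its 4991533 stayed near its wild-type level, and the index difference of -2.10 came with the gene. That of 4991949 was 1.06 with an offset of 50, against 1.72 without. The adducin Add3 had an index difference of 1.21 at 4712355 (adjusted p = 0.0446), with AGO2 null values of 6.99, 5.90 and 7.35 and wild-type values of 4.79, 4.53 and 5.64, a call that did not hold in the fit of 6 samples or with an offset of 50.

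Signalling genes with known alternative exons had 20 of 922 probe sets higher and 29 lower (5.31%). Map3k7 encodes TAK1, a kinase of the transforming growth factor and innate immune pathways with known alternative exons. With a gene median of 9.68, 9.80 and 9.79 in AGO2 null samples, against 9.80, 9.70 and 9.63 in wild-type samples, it had 4 of 22 probe sets higher and 3 lower. Probe set 4636504 read 9.76, 9.72 and 9.82 in AGO2 null samples, against 8.35, 7.95 and 8.35 in wild-type samples (index difference 1.50, SE 0.12, limma adjusted p = 0.0004). Probe set 5550079 read 8.10, 7.48 and 7.55 in AGO2 null samples, against 9.95, 9.68 and 9.62 in wild-type samples (index difference -2.09, SE 0.19, limma adjusted p = 0.000738). Both differed beyond the spread of the samples in opposite directions, and 5 of the 7 calls held in the fit of 6 samples. At 5550079 the AGO2 null index was also below that of Dicer null cells (difference -0.98, adjusted p = 0.0189), while at 4636504 that difference was 0.25 and not called. The growth factor Igf1 had an index difference of -2.23 at 4893942, which read 5.86, 5.84 and 5.57 in AGO2 null samples, against 5.32, 5.88 and 5.47 in wild-type samples while its gene differed by 2.43. The small GTPase Rac1 had an index difference of 1.17 at 4555607, at 8.73, 8.32 and 9.11 in AGO2 null samples, against 7.81, 7.21 and 7.57 in wild-type samples, and lost its call in the fit of 6 samples.

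Splicing factors, the proteins that choose splice sites, had 35 of 1049 probe sets higher and 40 lower (7.15%), in 36 of 61 genes, with a median of -0.01. Srsf7, of the serine and arginine rich family, had 8 higher and 2 lower of 16 with a gene difference of -0.50. Its probe set 5447212 read 8.54, 8.07 and 8.65 in AGO2 null samples, against 8.18, 7.44 and 7.59 in wild-type samples (index difference 1.18, adjusted p = 0.0232), and that call did not hold in the fit of 6 samples. Clk1, a kinase of those factors, read 8.89, 8.49 and 9.20 in AGO2 null samples, against 7.96, 7.82 and 7.73 in wild-type samples at 5280273 (index difference 1.12, SE 0.14, limma adjusted p = 0.00353), the single call among its 16 probe sets, and it held under every alternative run. AGO2 null replicate 2 was the lowest of its group there and still lay above the wild type. In Mbnl3 and Celf2, RNA-binding regulators of splicing, the index differences of the called probe sets 5334398 and 5137435 were -1.38 and -1.31, with probe set levels within 0.14 of the wild type and genes that differed by 1.52 and 1.24; neither held in the fit of 6 samples.

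RNA silencing genes had 11 of 757 probe sets higher and 40 lower (6.74%, median -0.05), and 7 of the lower and 2 of the higher were Ago2's own. Drosha, the nuclease that frees microRNA precursors, had 4 calls in 43 probe sets at a gene difference of -0.02. Its probe set 4993539 read 4.54, 3.94 and 5.15 in AGO2 null samples, against 6.89, 6.54 and 7.67 in wild-type samples (index difference -2.47, SE 0.31, limma adjusted p = 0.00362). Dicer null samples read 7.04, 7.00 and 7.22 there, and the AGO2 null index differed from theirs by -2.21 (adjusted p = 0.00437). Probe set 5069633 of Drosha read 6.45, 6.36 and 7.04 in AGO2 null samples, against 4.86, 4.83 and 6.02 in wild-type samples. Its index difference of 1.40 was not called in the fit of 6 samples. With an offset of 50 the index differences of these Drosha probe sets were -1.28 and 0.76. The nuclear exonuclease Xrn2 read 8.24, 7.79 and 8.21 in AGO2 null samples, against 6.94, 6.77 and 7.26 in wild-type samples at 5364435 (index difference 0.98, adjusted p = 0.00832), and its call held under every alternative run. Chromatin silencing factors had 9 of 762 higher and 28 lower (4.86%), of which 15 lower and 3 higher were in Smarca2, an ATPase of chromatin remodelling complexes whose gene differed by 1.08. Sirt1, a histone deacetylase, read 6.87, 6.01 and 7.16 in AGO2 null samples, against 5.84, 4.91 and 5.82 in wild-type samples at 4347990 (index difference 1.58, SE 0.22, limma adjusted p = 0.00575), where the lowest AGO2 null value, that of replicate 2, was close to the wild type and the gene median differed by -0.42. Ezh2, the methyltransferase of Polycomb, and Cbx1, a heterochromatin protein, had index differences of 1.08 and -0.90 in genes that differed by 0.06 and 0.23, and both calls were lost in the fit of 6 samples. Proteasome subunits, the list of Psmb5 and Psma3, had 5 of 340 higher and 6 lower (3.24%), below the 5.91% over all probe sets tested. With diffSplice the order turned, with 39 of 340 (11.5%) beside 8.43% over all. Their ATPases Psmc4 and Psmc6 had index differences of -1.25 and -0.53 in genes that differed by 0.13 and 0.53, neither called in the fit of 6 samples.

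Among cell type markers, the fibroblast list had 4 of 374 probe sets higher and 26 lower (8.02%, median -0.07), with 15 of the lower in Col3a1, a fibrillar collagen whose gene differed by 0.84. The proteoglycan Dcn had an index difference of 0.89 at 4506668, in a gene that differed by 1.45. Of the epithelial list 6 of 40 were higher and 4 lower, all in the keratins Krt19 and Krt14. Mean wild-type gene levels were 5.84 for Krt19 and 6.59 for Krt14, under the limit of 6.69. Both genes were therefore tested through samples where they were higher. Krt19 5280952 read 9.50, 9.74 and 9.59 in AGO2 null samples, against 4.48, 3.77 and 3.76 in wild-type samples, with a gene difference of 3.57, and Krt14 5114528 read 7.68, 7.97 and 7.77 in AGO2 null samples, against 7.69, 8.03 and 7.78 in wild-type samples, with a gene difference of 1.90. With an offset of 50 the index difference of Krt19 5280952 was 0.89, against 2.04 without. It moved further than its gene, and the Krt14 probe set stayed at its wild-type level. Endothelial and neural lists had 1 lower each, in the receptor Flt1 (index difference -0.91, gene 1.34) and in the microtubule protein Map2 (-1.28, gene -1.01), and neither call held without AGO2 null replicate 1 or without AGO2 null replicate 3. Of 8 probe sets of macrophage markers none was called by limma or diffSplice and 1 had an unadjusted p under 0.05, while of 8 of skeletal muscle markers none did. In the fit of 6 samples 2.12% of all probe sets tested were called. The counts there were 76 of 1104 for matrix and adhesion (6.88%), 15 of 1144 for cytoskeletal (1.31%), 16 of 922 for signalling (1.74%) and 22 of 1049 for splicing genes (2.1%). They were 17 of 757 for RNA silencing (2.25%), 13 of 762 for chromatin (1.71%) and 3 of 340 for proteasome genes (0.882%), 9 of 374 for fibroblast (2.41%) and 6 of 40 for epithelial markers (15%). Cytoskeletal genes, above the overall share in the fit of 9 samples, were below it in the fit of 6.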

How the data were processed

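Labelled RNA of 9 samples at the exon level was hybridised to Affymetrix exon arrays, and the authors deposited a table of log2 values per probe set, used here as given. The genome build mm8 is named per the submitters' processing notes, and how the arrays were summarised and normalized is not given here in any source used. The platform annotation gave 1 gene symbol to 209279 of 229581 rows, several to 4446 and none to 15856, and 208810 symbols matched the RefSeq table. The splicing index was tested with limma (version 3.58.1, R 4.3.3; lmFit, then eBayes) for 114158 probe sets over 9 samples with group means only, with Benjamini-Hochberg adjustment over all of them. The test was checked on simulated data with independent noise and no differences in gene level. That check does not cover genes whose level differed. The members, lists and tests were chosen with earlier results of these data known.

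Besides all of Ago2, called probe sets whose indices did not overlap between genotypes were named by rule: the 10 genes with the largest index differences each way and the 8 each way among genes within 0.25, 1 probe set per gene, the 8 genes of widest span, up to 2 each way per list, and Cd44. The 8 genes with most calls, and all calls of Tpm2, Map3k7 and Eln, were added after the values were seen. The index deviations of same-numbered AGO2 null and wild-type samples correlated at 0.0459, 0.2404 and 0.1162, not all over 0.1, so the numbers were not taken as pairs. Other samples fitted, filters, centring, normalization, offset, tool and left-out samples were tried as alternatives. Array number limits the precision.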

Additional observations from a re-analysis of the deposited data

How the results depend on the processing

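The 6744 calls and the 1690 of at least 2-fold depended on which samples and genes were fitted. A fit of only the 6 AGO2 null and wild-type samples gave 2422, and restricting the test to genes whose level differed by less than 0.5 gave 1442, with 387 of at least 2-fold. The 2-fold count was 3246 with no level filter, 1104 with the stricter filter and 946 with an offset of 50. Leaving out 1 sample gave 2836 to 6753 calls, with the lowest counts without AGO2 null replicate 3 (2836), AGO2 null replicate 1 (3327) and wild-type replicate 2 (3972), and 1311 to 1926 of at least 2-fold. With a replicate block, although the numbers were not taken as pairs, 4796 were called. The count with limma's diffSplice was 9626, of which 60.55% were higher, and 4200 of the 6744 were among the 9626. With no level filter 6562 were called, and 3805 of the 6744 were still called. With the gene mean in place of the median 8698 were called, and 4957 of the 6744 were still called. Level calls ranged from 23762 to 45190, against 35399. Of 233 named called probe sets, 121 were called under every alternative that tested them and 0 changed direction; the causes of the lost calls were not tested. With 3 arrays per group, small index differences could not be resolved.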

Other observations

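Probe sets called in genes with a level within 0.25 were found on every chromosome compared, as placed by the RefSeq GRCm38.p6 table, with 2.16% to 4.54% of those tested called on each. The highest share was on chromosome 12, with 92 of 2027 probe sets (4.54%, beside 2.96% over all such genes), followed by chromosome 15, with 96 of 2611 (3.68%). For calls of at least 2-fold the highest share was on chromosome 13, at 0.891%, with 0.839% on chromosome 12. Of the 16 probe sets described in such genes, 5 were on chromosome 12, those of Psma3, Scfd1, Mboat2, Arid4a and Heatr5a, where 3.27% of the tested probe sets of such genes with a known chromosome lay. Chromosome 5 held 4 of the 16, with 7.65% of those probe sets and a share called of 2.47%. These counts were made after the values were seen and have no test.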
